A study of Mus musculus with 6 samples.

Results

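Immune checkpoint ligands are surface or secreted proteins by which a tumour cell restrains the lymphocytes and macrophages it meets. The genes described here are Cd274, Pdcd1lg2, Tnfrsf14, Btla, Cd160, Pvr, Nectin2, Lgals9, Cd47 and Cd276, taken by their gene names from a list set for this work, and all 10 were found among the 53700 listed genes, each under a single identifier. They were compared between SL4 cells without overexpression of SEMA6A (pLV-Control, 3 libraries) and SL4 cells with overexpression of SEMA6A (pLV-SEMA6A, 3 libraries), with no other treatment, time point or allele named. SL4 is a luciferase-expressing mouse line of colorectal cancer (CRC), and the pLV-SEMA6A cells are a stable line made with a lentivirus. The study calls the sequenced control both SL4 and pLV-Control, and the labels do not say whether it carried a control vector. Each group is a single line, not stated to be a clone or a pool, so SEMA6A and a difference between the lines cannot be told apart, nor can the lentivirus if the control carried none. Nothing states that the 3 libraries of a group came from separate cultures, so the p-values measure the spread between these libraries, which may be technical.

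PD-L1, encoded by Cd274, and PD-L2, encoded by Pdcd1lg2, engage the receptor PD-1 and dampen T cells, and interferon-gamma is the classical inducer of PD-L1 in tumour cells. PVR and nectin-2 are adhesion molecules shared by the inhibitory receptor TIGIT and the activating receptor CD226, and galectin-9 (Lgals9) is a lectin that binds TIM-3, among other glycoproteins. CD47 gives macrophages a "do not eat me" signal through SIRPα, and B7-H3 (Cd276) is a B7 family member whose receptor is debated. HVEM, encoded by Tnfrsf14, is the odd member: it is a TNF receptor on the tumour or T cell that serves as ligand for BTLA and CD160, both of which belong mainly to lymphocytes.

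Expression was deposited as TPM, a unit that corrects for transcript length and sets every library to a common total, so levels can be set beside each other between genes while the number of reads is unknown and no counting limit can be given. The listed TPM summed to between 984475 and 986444 per library in pLV-Control and between 977400 and 977972 in pLV-SEMA6A. Sema6a read 98.7, 118 and 112 TPM where overexpressed and 0 in each pLV-Control library, the direction of the labels. The cells carried little of what marks colon epithelium: none of 8 markers passed 1 TPM on average, Epcam and Cdx2 were at 0 throughout, and the 8 together summed to between 0.13 and 0.54 TPM in any library. Markers of lymphocytes and myeloid cells were similarly low, with Cd68 alone of 11 above an average of 1 TPM (1.13), Cd3e, Cd8a, Ncr1, Itgam and Adgre1 at 0, and sums of 1.31 to 2.58 TPM in pLV-Control and 1.11 to 1.86 TPM in pLV-SEMA6A. The bulk values do not separate fewer cells of a kind from less RNA per cell.

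A listed 0 can be a failed estimate rather than silence. The mitochondrial gene mt-Co3 stood at 0.33 TPM in pLV-SEMA6A replicate 2, while the remaining libraries held between 141 and 450.1 TPM. Each library listed at 0 between 1 and 3 genes that had at least 5 TPM in all the others.

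The promoters of Cd274 and Lgals9, the tested members with the most negative log2 fold changes, and of Tnfrsf14, the HVEM gene, which was too low to be tested and has no call, are printed to show where they hold the core of an interferon-stimulated response element. The sequences are RefSeq windows on GRCm38.p6, from 250 bases before the transcript start to 50 bases from it on, on the strand of the gene. They lie at chr19:29367188-29367487 on the plus strand for Cd274, at chr11:78984875-78985174 on the minus strand for Lgals9 and at chr4:154928028-154928327 on the minus strand for Tnfrsf14. Capitals mark every match to GAAANNGAA on either strand, and every match in these 3 windows lies on the strand opposite to the printed one.
Cd274: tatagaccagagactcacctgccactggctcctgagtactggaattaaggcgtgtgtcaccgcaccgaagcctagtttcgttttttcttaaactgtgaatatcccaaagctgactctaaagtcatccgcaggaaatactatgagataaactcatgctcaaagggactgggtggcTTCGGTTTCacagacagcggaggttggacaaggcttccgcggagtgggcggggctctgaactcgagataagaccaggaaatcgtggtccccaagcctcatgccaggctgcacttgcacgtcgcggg
Lgals9: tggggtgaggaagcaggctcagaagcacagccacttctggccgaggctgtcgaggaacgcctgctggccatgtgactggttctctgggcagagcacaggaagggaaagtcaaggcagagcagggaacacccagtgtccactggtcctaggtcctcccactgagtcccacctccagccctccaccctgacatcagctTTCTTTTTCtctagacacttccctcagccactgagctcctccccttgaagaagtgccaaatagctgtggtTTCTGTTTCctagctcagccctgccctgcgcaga
Tnfrsf14: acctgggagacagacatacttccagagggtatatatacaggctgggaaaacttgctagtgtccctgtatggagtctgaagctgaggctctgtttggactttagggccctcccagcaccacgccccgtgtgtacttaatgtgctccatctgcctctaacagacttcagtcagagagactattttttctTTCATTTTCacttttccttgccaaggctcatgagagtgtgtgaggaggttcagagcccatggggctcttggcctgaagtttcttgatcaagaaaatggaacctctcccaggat

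The match of Cd274 began 76 bases before the transcript start, that of Tnfrsf14 63 bases before it, and those of Lgals9 54 bases before it and 16 bases after it. Windows were found for 9 of the 10 members, with 2 for Cd160 and 2 for Cd47, and for Pvr none was given. Btla, not printed and too low to be tested, held 1 further match, on the strand of the gene 210 bases before its start. The windows of Nectin2 and Cd47, both called lower in pLV-SEMA6A, and of Cd276, Pdcd1lg2 and Cd160 held none. The gamma-activated sequence TTCNNNGAA, a motif of interferon-gamma responses, occurred once, in a window of Cd160. Of 32851 promoter windows in the table, 8.56% hold GAAANNGAA and 8.30% hold TTCNNNGAA. A match is a run of letters and says nothing of binding. The motifs, and the windows to print, were picked with the expression values already known. A link between matches and expression was not tested.

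**Figure D1:**
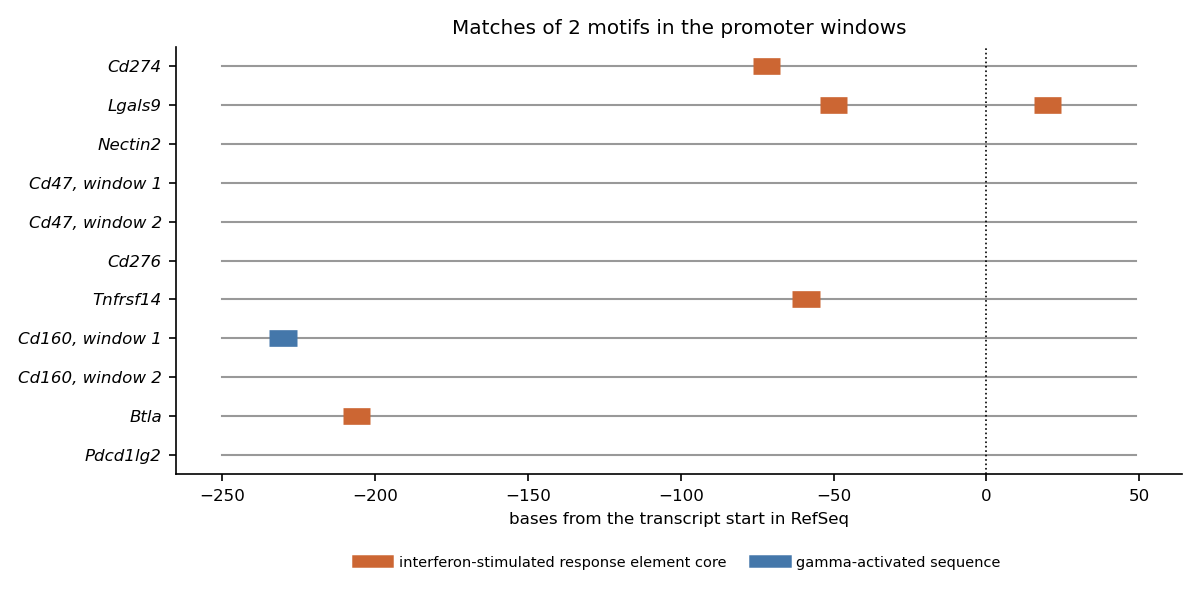
Matches of GAAANNGAA (interferon-stimulated response element core, orange) and TTCNNNGAA (gamma-activated sequence, blue) in the RefSeq promoter windows of 9 members, drawn to scale. The x axis gives bases from the transcript start, which is marked by the dotted line, and each grey line is 1 window of 300 bases; orange matches fall in Cd274, Lgals9, Tnfrsf14 and Btla.

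Of the 10 members, 6 had an average of at least 1 TPM and entered the test, and 4 of these 6 were lower in pLV-SEMA6A at an adjusted p under 0.05, while 0 were higher. By the same rule 28.2% of all 12510 tested genes were lower and 19.5% were higher. Lgals9 and Cd274 fell well beyond the replicate spread, Nectin2 fell modestly, and Cd47 fell slightly. Pvr and Cd276 did not pass the test, and Tnfrsf14, Cd160, Btla and Pdcd1lg2 were too low to enter it. With a minimum absolute log2 fold change of 0.5 on top, 2 of the 6 members counted as lower and 0 as higher, beside 10.8% and 5.12% of all tested genes. The median log2 fold change of the 6 members was −0.26, and that of all tested genes −0.06. When each library was centred on its own median, all changes moved up by 0.09 on the log2 scale, 3 of the 6 members were lower, and the calls among all genes became 2474 lower and 3370 higher in place of 3523 and 2436.

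**Figure D2:**
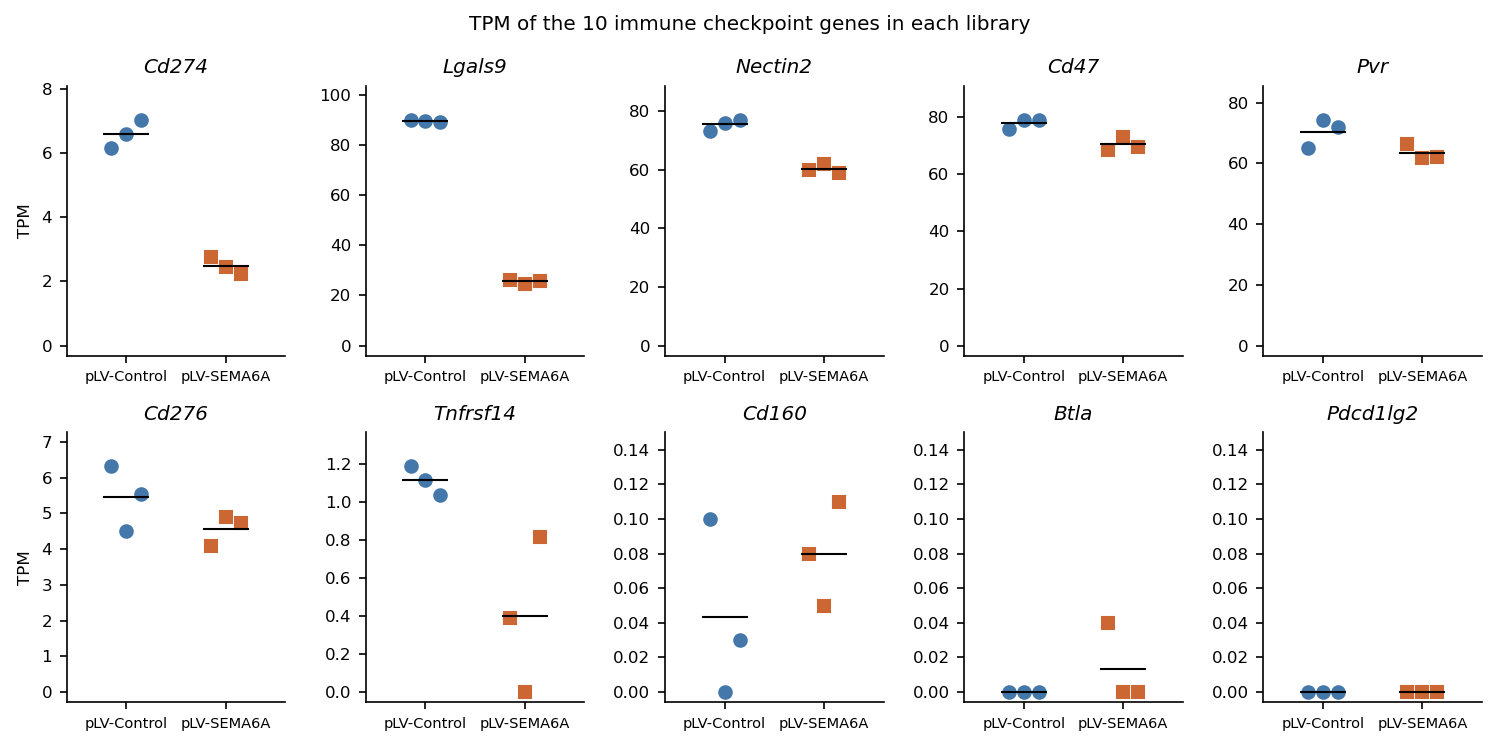
TPM of each member in the 3 pLV-Control (blue circles) and 3 pLV-SEMA6A (orange squares) libraries, with a black bar at the group mean; every panel has its own linear y axis from 0. The groups stand apart in Cd274, Lgals9, Nectin2, Cd47 and Tnfrsf14 and overlap in Pvr and Cd276, while Cd160, Btla and Pdcd1lg2 stay at or under 0.11 TPM. The share of all genes whose groups stand apart is not given here, and Tnfrsf14 was too low to be tested.

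Cd274 read 6.15, 6.61 and 7.04 TPM in pLV-Control against 2.75, 2.45 and 2.24 TPM under SEMA6A. The ranges are far apart, with the lowest control library at more than 2 times the highest pLV-SEMA6A library. Mean TPM was 6.60 ± 0.45 against 2.48 ± 0.26 (SD, n = 3 each), a 2.66-fold lower level. The log2 fold change on log2(TPM + 1) was −1.13 (SE 0.10; 95% interval −1.37 to −0.89, limma adjusted p = 0.000235), and −1.38 with a pseudocount of 0.1, since adding 1 compresses a gene of this level. Cd274 was a low transcript in these cells, above only 20.0% of the tested genes in mean TPM, and its fall ranked 318 of 12510. In GENCODE M21 an antisense gene, listed here as Gm36043, overlaps it, and 14.6% of the 31-base stretches of Cd274 occur in other genes, mainly that one. Gm36043 was at 0.51 to 0.80 TPM in pLV-Control and 0.22 to 0.25 TPM in pLV-SEMA6A, and whether the counting used strand is not given in the sources used here.

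Pdcd1lg2, the gene next to Cd274 on chromosome 19, was listed at 0 in all 6 libraries, so Cd274 was the only PD-1 ligand gene listed above 0. On the other side lie Plgrkt, Rln1 and Insl6 in the order of GENCODE M21. Insl6, an insulin-like peptide gene looked at after its values were seen, read 12.9, 13.6 and 14.3 TPM in pLV-Control against 4.56, 5.04 and 2.74 TPM under SEMA6A, a log2 fold change of −1.54 (limma adjusted p = 0.000756). The other expressed neighbours had smaller values, with a log2 fold change of −0.32 for Plgrkt (limma adjusted p = 0.00886), −0.13 for Ric1 (adjusted p = 0.0863) and 0.13 for Ermp1 (adjusted p = 0.0770).

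Lgals9 was the most abundant member in pLV-Control, at 90.2, 89.55 and 89.4 TPM, and stood at 26.3, 24.7 and 26.0 TPM in pLV-SEMA6A. Every library of a group lay within 2 TPM of the others, and the groups were far apart. Mean TPM was 89.7 ± 0.40 against 25.65 ± 0.88 (SD, n = 3 each), a 3.50-fold lower level and a log2 fold change of −1.77 (SE 0.04, limma adjusted p = 7.8e-07). Only 0.911% of the tested genes had a more negative change. No 31-base stretch of its transcripts occurs in another gene of GENCODE M21. TIM-3 (Havcr2), the T cell receptor most often paired with galectin-9, was itself listed at 2.15 ± 0.13 and 1.61 ± 0.22 TPM (SD, n = 3 each, limma adjusted p = 0.127).

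**Figure D3:**
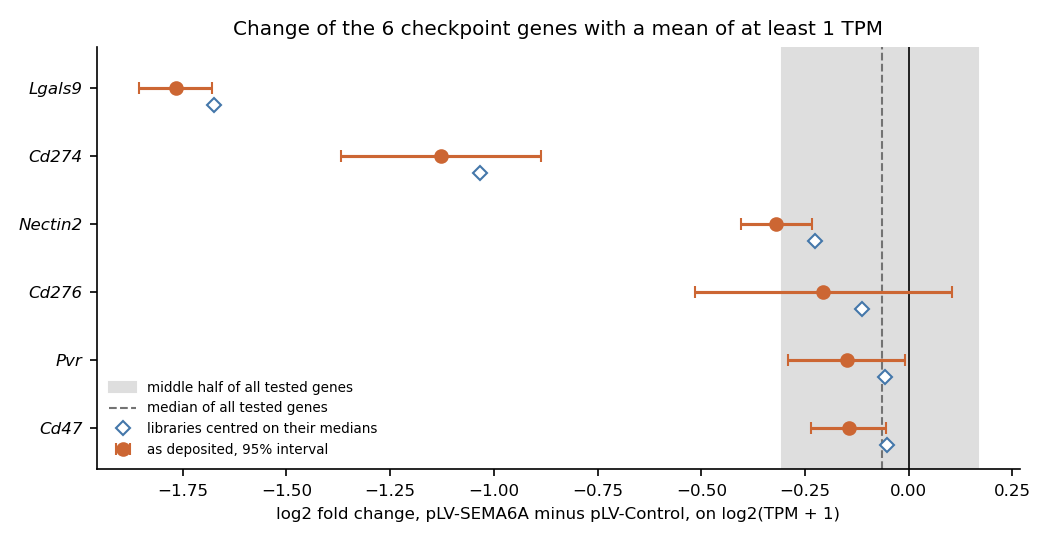
Log2 fold change of the 6 tested members between pLV-SEMA6A and pLV-Control on log2(TPM + 1), with orange points and 95% limma intervals for TPM as deposited and open blue diamonds for libraries centred on their medians. The grey band spans the 25th to the 75th percentile of all 12510 tested genes for TPM as deposited, and the dashed line is their median. Centring moves all genes, and no band is drawn for it. Lgals9 and Cd274 lie left of the drawn band under both scalings, and Nectin2 does so as deposited.

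PVR and nectin-2 share the receptors TIGIT and CD226, and of their genes Nectin2 passed the test and Pvr did not. Nectin2 read 73.2, 76.0 and 77.0 TPM in pLV-Control against 59.8, 62.0 and 58.9 TPM under SEMA6A, with no overlap. Its log2 fold change was −0.32 (SE 0.04, limma adjusted p = 0.000622), and the pLV-SEMA6A mean was 79.9% of the control mean. Pvr read 64.95, 74.3 and 72.0 TPM in pLV-Control against 66.2, 61.6 and 62.1 TPM under SEMA6A, so the groups overlapped, since pLV-Control replicate 1 lay below pLV-SEMA6A replicate 1. Its log2 fold change was −0.15 (95% interval −0.29 to −0.01, limma adjusted p = 0.0770), and without that library −0.21 (limma adjusted p = 0.0186). The difference between the changes of these genes was not tested.

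Tigit, the gene of that receptor, was abundant, at 86.1, 82.1 and 89.6 TPM in pLV-Control and 90.75, 96.85 and 97.9 TPM in pLV-SEMA6A. These levels lie above those of its ligand genes Pvr and Nectin2, in cells whose libraries list Cd3e, Cd8a and Ncr1 at 0 and Ptprc at no more than 0.04 TPM. Its log2 fold change of 0.15 (limma adjusted p = 0.0391) lost the threshold in 8 of 13 alternatives. The genes on either side, Zbtb20 at 4.62 to 8.10 TPM and Drd3 at 0, were much lower, and 8.37% of the 31-base stretches of the single annotated Tigit transcript occur in other genes. Whether the reads form the full receptor transcript cannot be seen in a gene-level table. The further receptors of PVR, Cd226 and Cd96, were at 0 in all libraries, and Pvrig, a receptor of nectin-2, was at 0.07 to 0.64 TPM.

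Cd47 read 76.0, 79.2 and 79.1 TPM in pLV-Control against 68.6, 73.3 and 69.65 TPM under SEMA6A. The groups did not overlap, yet the gap was narrow, and the pLV-SEMA6A mean was 90.3% of the control mean. Its log2 fold change was −0.15 (SE 0.04, limma adjusted p = 0.0190). This call was lost when the libraries were centred on their medians (−0.05, limma adjusted p = 0.287) and on leaving out pLV-Control replicate 2 or 3 or pLV-SEMA6A replicate 1 or 3, with adjusted p from 0.0568 to 0.0605. Sirpa, the receptor of CD47 on macrophages, was at 0, while Thbs1, a secreted ligand of CD47, fell from 33.1 ± 0.34 to 17.6 ± 0.50 TPM (SD, n = 3 each; log2 fold change −0.88, limma adjusted p = 1.9e-05).

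Cd276 read 6.32, 4.52 and 5.54 TPM in pLV-Control against 4.08, 4.91 and 4.73 TPM under SEMA6A. The libraries overlapped, and the log2 fold change was −0.21 with a 95% interval from −0.52 to 0.10 (limma adjusted p = 0.231). A fall as large as that of Cd274 lies outside this interval. Of the 31-base stretches of Cd276, 10.5% occur in other genes, mainly the opposite-strand Gm10657, which did not exceed 0.23 TPM.

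Tnfrsf14, which encodes HVEM, was near the limit of what the table can show. It read 1.19, 1.12 and 1.04 TPM in pLV-Control against 0.39, 0 and 0.82 TPM under SEMA6A. All control libraries lay above all pLV-SEMA6A libraries, and the pLV-SEMA6A libraries scattered widely, from the listed 0 in replicate 2 to 0.82 TPM in replicate 3. Replicate 2 is also the library with the low mt-Co3, and a link between these low values was not tested. The average of 0.76 TPM kept it out of the main test, and in a fit without the filter its log2 fold change was −0.63 (limma adjusted p = 0.107). Of the 31-base stretches of Tnfrsf14, 8.18% occur elsewhere, mainly in Dpm1. The binding partners of HVEM were close to absent. Btla was listed at 0 in 5 libraries and at 0.04 TPM in pLV-SEMA6A replicate 1. Cd160 read 0.10, 0 and 0.03 TPM in pLV-Control against 0.08, 0.05 and 0.11 TPM under SEMA6A, and the groups overlapped. Tnfsf14, the LIGHT ligand of HVEM, was at 0 in every library, and Lta, a further ligand, reached 0.11 TPM at most. Without the filter the log2 fold change was 0.02 for Btla (limma adjusted p = 0.672) and 0.05 for Cd160 (limma adjusted p = 0.521), values at which an addition of 1 TPM leaves little to compare.

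**Figure D4:**
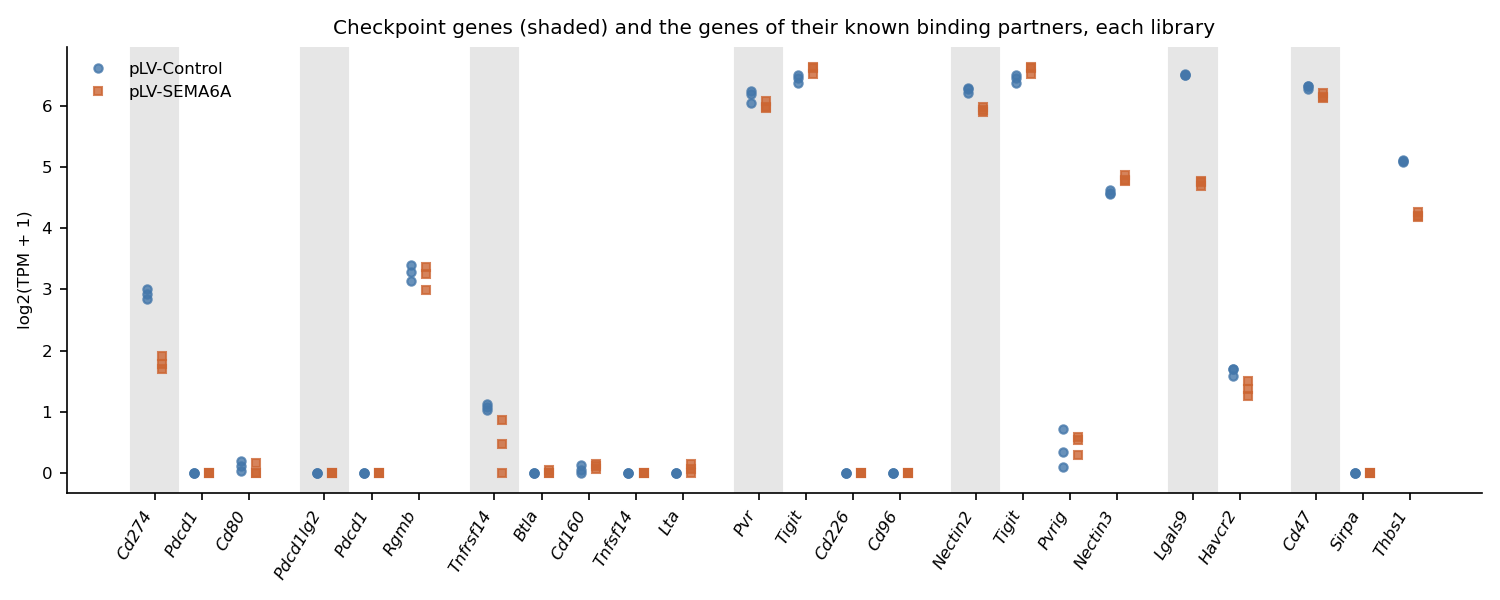
Each library's log2(TPM + 1) for 7 members (shaded) and the genes of their known binding partners to the right of each, with pLV-Control as blue circles and pLV-SEMA6A as orange squares. Tigit lies above Pvr and Nectin2 in every library, whereas Pdcd1, Tnfsf14, Cd226, Cd96 and Sirpa are at 0.

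Set in order of TPM, the members fell into an abundant tier and a low tier in pLV-Control. In pLV-SEMA6A Lgals9, at 24.7 to 26.3 TPM, lay between Nectin2, at 58.9 TPM or more, and Cd276, at 4.91 TPM or less. In pLV-Control the order was Lgals9, Cd47, Nectin2 and Pvr, all between 64.95 and 90.2 TPM in any library, followed by Cd274, Cd276 and Tnfrsf14. The library ranges of Cd47, Nectin2 and Pvr overlapped from neighbour to neighbour, as did those of Cd274 and Cd276, and Lgals9 stood above Cd47. In pLV-SEMA6A the order was Cd47, Pvr, Nectin2, Lgals9, Cd276, Cd274 and Tnfrsf14, where Pvr and Nectin2 overlapped. Lgals9 thus went from position 1 to position 4, and Cd274 from above Cd276, with overlap, to below it without overlap. The 10 members summed to between 318 and 331 TPM in pLV-Control and between 225 and 229 TPM in pLV-SEMA6A, of which Lgals9 made up 27.4% and 11.3%.

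Ratios within a library do not depend on its scaling, and 5 were formed with Cd274 as the numerator. The log2 ratio of Cd274 to Cd47 went from −3.57 ± 0.07 to −4.83 ± 0.17 (SD, n = 3 each), a difference of −1.27. The difference was −1.26 against Pvr, −1.17 against Cd276 and −1.09 against Nectin2. Against Lgals9 it was 0.39, with a mean of −3.77 ± 0.10 in pLV-Control and −3.38 ± 0.14 in pLV-SEMA6A (SD, n = 3 each). In all 5 ratios the groups did not overlap, and the two-sided exact permutation test gave p = 0.1 for each, the smallest that 3 libraries against 3 allow, and 0.1 after adjustment over the 5. The 5 ratios share Cd274, whose own groups did not overlap, so they are not independent results.

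PD-L1 transcription is classically driven from the interferon-gamma receptor through the kinases JAK1 and JAK2 to the factor IRF1, with IRF2 as a competitor. All 8 genes of this list were tested, and 6 were lower and 1 higher, with a median log2 fold change of −0.28. Among all tested genes 28.2% were lower and 19.5% higher, the shares to set beside the count of each list below. A link between these genes and the level of Cd274 was not tested. Irf1 read 26.7, 29.3 and 25.1 TPM in pLV-Control against 12.2, 10.4 and 12.8 TPM under SEMA6A, a log2 fold change of −1.13 (limma adjusted p = 0.000166). The remaining falls were smaller, with −0.41 for Irf2, −0.38 for Stat3, −0.32 for Jak2, −0.23 for the receptor chain Ifngr1 and −0.18 for Ifngr2. Jak1 rose by 0.19, and Socs1, a feedback inhibitor, had a log2 fold change of 0.24 (limma adjusted p = 0.178). Ifngr2 lost its call in 7 of 13 alternatives, among them both other scalings, and Irf2 on leaving out pLV-Control replicate 2 or 3.

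A further list held 12 genes known to act on PD-L1 as a protein, of which 3 were lower, 4 higher and 5 did not pass, with a median log2 fold change of −0.02. Cmtm6, which keeps PD-L1 at the cell surface, fell, with means of 19.5 ± 0.58 and 12.0 ± 0.65 TPM (SD, n = 3 each) and a log2 fold change of −0.66 (limma adjusted p = 0.000216). Its relative Cmtm4 had a log2 fold change of −0.33 and the deubiquitinase Usp22 one of −0.28. The ubiquitin ligase genes Cul3 (0.40) and Stub1 (0.36) and the kinase gene Gsk3b (0.25), whose products promote loss of PD-L1 protein, were higher, as was Spop (0.10), which lost its call in 9 of 13 alternatives. Hip1r, which sends PD-L1 to the lysosome, had −0.39 (limma adjusted p = 0.0504). For Stub1, 37.0% of the 31-base stretches recur in further genes, chiefly the overlapping Jmjd8. Stt3a, which adds glycans, was the most abundant at 343 ± 17.2 and 356 ± 9.13 TPM (SD, n = 3 each, limma adjusted p = 0.317). Protein was not measured in the deposited table.

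Among the binding partners of the members, 5 of 13 were tested, and 1 was lower and 2 were higher. Besides Thbs1 and Tigit, the called gene was Nectin3, whose product binds nectin-2 and PVR and had a log2 fold change of 0.23 (limma adjusted p = 0.00636). Pdcd1 was at 0 in every library, Cd80 did not exceed 0.15 TPM, and Rgmb, a partner of PD-L2, was at 8.68 ± 0.89 and 8.24 ± 1.21 TPM (SD, n = 3 each, limma adjusted p = 0.652).

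The other B7 and butyrophilin genes and the costimulatory TNF ligands were low. Of 8 B7 and butyrophilin genes only Vsir, which encodes VISTA, was tested, at 2.63 ± 0.69 and 1.77 ± 0.48 TPM (SD, n = 3 each, limma adjusted p = 0.154), and Cd86, Vtcn1 and Btnl2 were at 0. Icosl did not exceed 0.18 TPM, and Btn2a2 was at 0.16 to 0.19 TPM in pLV-Control and at 0.03 TPM in every pLV-SEMA6A library. Of 6 TNF family genes only Tnfsf9, the 4-1BB ligand, was tested, at 5.91 ± 1.04 and 4.25 ± 0.72 TPM (SD, n = 3 each, limma adjusted p = 0.0776). Tnfsf15, which encodes TL1A and was too low for the main test, was at 1.04, 1.07 and 0.87 TPM in pLV-Control and 0.30, 0.50 and 0.34 TPM in pLV-SEMA6A, with no overlap. In the fit without the filter Tnfsf15 and Btn2a2 were lower, with a log2 fold change of −0.53 for Tnfsf15 (limma adjusted p = 0.0118) and −0.18 for Btn2a2 (limma adjusted p = 0.00857). In that fit 13.0% of all genes were lower. The values of Btn2a2 are so low that an addition of 1 TPM leaves little to compare. Tnfsf4 and Cd70 were at 0 and Tnfsf18 did not exceed 0.13 TPM. Of 5 NKG2D ligands 3 were tested, and Ulbp1 was higher, with a log2 fold change of 0.46 (limma adjusted p = 0.00556). Raet1d and Raet1e, at −0.01 and −0.07, did not pass and share 67.1% and 55.5% of their stretches, so reads could be split between them.

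Galectin genes were called in both directions. Besides Lgals9, Lgals8 fell, with means of 105 ± 1.33 and 59.0 ± 4.13 TPM (SD, n = 3 each) and a log2 fold change of −0.82 (limma adjusted p = 6.1e-05). Lgals1, at 6202 ± 47.2 and 7205 ± 24.9 TPM (SD, n = 3 each), and Lgals3 had log2 fold changes of 0.22 and 0.39, and the call of Lgals1 was lost under quantile normalization. In all, the list of other nectins, nectin-like genes and galectins had 5 of 7 genes tested, with 1 lower and 3 higher. Nectin1 had a log2 fold change of −0.35 (limma adjusted p = 0.0559).

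A list of 10 other inhibitory ligands and enzymes had 3 genes tested, of which H2-T23 and Clec2d were lower. H2-T23, which encodes Qa-1, the ligand of NKG2A, read 31.04, 29.9 and 31.8 TPM in pLV-Control against 6.20, 5.11 and 6.52 TPM under SEMA6A, a log2 fold change of −2.21 (limma adjusted p = 9.6e-06). Clec2d, which encodes Clr-b, the ligand of NKR-P1B, read 42.9, 40.7 and 38.8 TPM in pLV-Control against 9.78, 6.77 and 9.33 TPM under SEMA6A, a log2 fold change of −2.13 (limma adjusted p = 4.9e-05). Both log2 fold changes were below those of the 6 tested members, a difference that was not tested. H2-T23 shares 25.8% and Clec2d 11.8% of their 31-base stretches with other genes, chiefly relatives, so part of their reads could be misassigned. Cd200, the third tested gene, did not pass (limma adjusted p = 0.804), and Ido1, Cd24a and Vsig4 were at 0.

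Around CD47, 4 of 5 genes of the phagocytosis list were tested, with 1 lower and 2 higher. Calr, whose product calreticulin invites engulfment when exposed, rose, with means of 789 ± 10.8 and 1086 ± 6.00 TPM (SD, n = 3 each) and a log2 fold change of 0.46 (limma adjusted p = 9.1e-06). Lrp1, its receptor, had a log2 fold change of 0.19 (limma adjusted p = 0.00229). Qpctl, the enzyme that modifies CD47 so that SIRPα can bind, was at 6.01 ± 0.66 and 6.91 ± 0.63 TPM (SD, n = 3 each, limma adjusted p = 0.204).

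**Figure D5:**
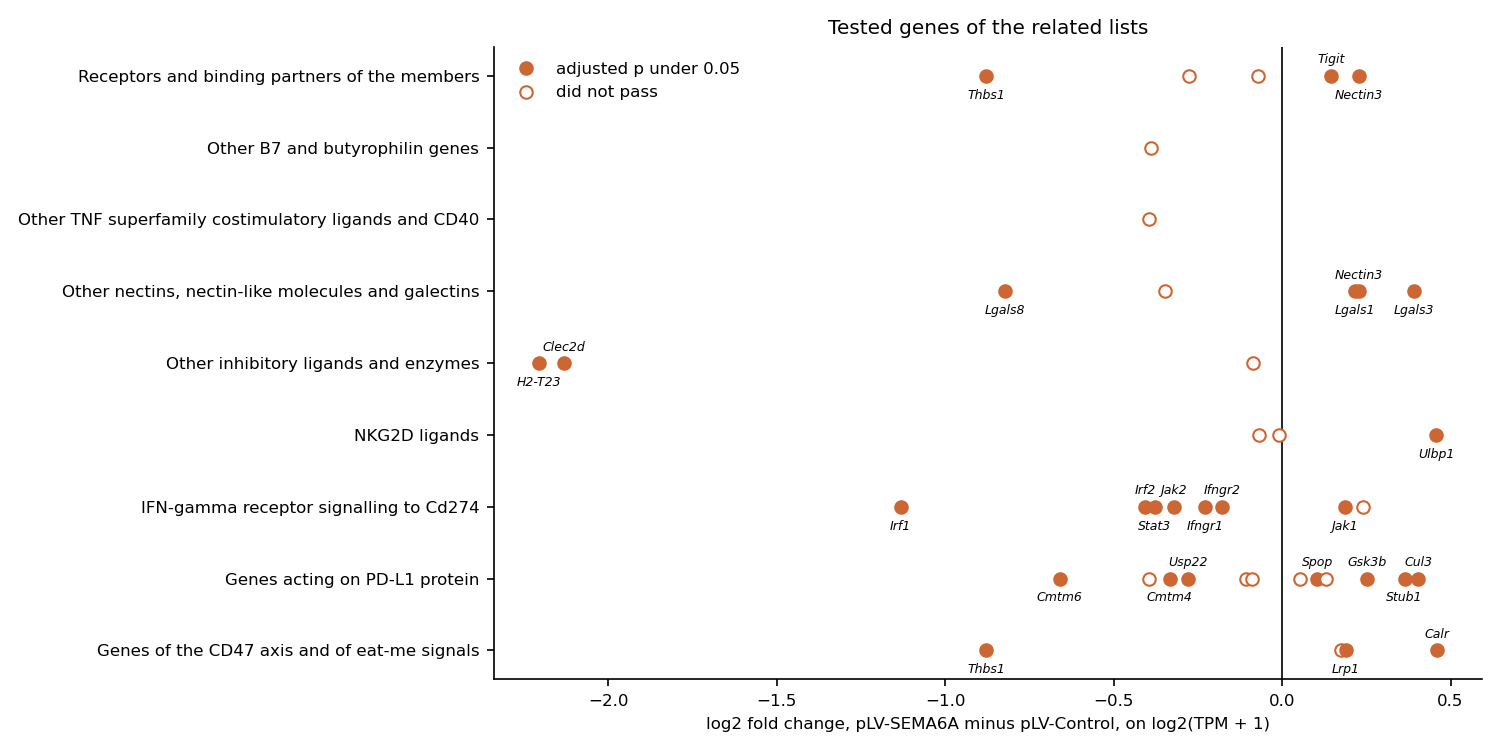
Log2 fold change on log2(TPM + 1) of each tested gene in the 9 related lists, with filled points for an adjusted p under 0.05 and open points for genes that did not pass; Thbs1 and Nectin3 stand in 2 lists each. H2-T23 and Clec2d lie farthest to the left, and no called gene rises by more than 0.46.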

How the data were processed

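RNA-seq of SL4 cells gave 3 pLV-Control and 3 pLV-SEMA6A libraries from poly-A-selected RNA. The authors deposited TPM per gene and library, together with the mean TPM of each group, which was not used. Their processing notes name HISAT, Bowtie2, RSEM and the mm39 build, with no versions or roles, and the study's methods name DESeq2, which needs counts and was not run. TPM keeps no depth, so the precision rests on the 3 libraries of a group.

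The values were fitted as log2(TPM + 1) with limma 3.58.1 in R 4.3.3, with an intensity trend and no covariate beside the group, on 12510 genes averaging 1 TPM or more over the 6 libraries. The Benjamini-Hochberg adjustment ran over all of these genes. The limma fit, with and without the replicate block, was first tested on simulated data, and the other steps were not. Within-library ratios were compared by an exact permutation test.

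The members and lists were chosen with earlier results of these data known, and some genes of the lists are not reported here and were left out of their counts. Named are Sema6a, all members, up to 3 genes of each list by level and up to 3 by change, and genes whose products act on a member; Insl6, Plgrkt, Ric1, Ermp1, Gm36043, Gm10657, mt-Co3, Zbtb20 and Drd3 were added once the values had been seen. Shared 31-base stretches and overlapping genes were read from GENCODE M21 (GRCm38) by identifier, and promoters from RefSeq (GRCm38.p6) by symbol.

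Same-numbered libraries did not deviate together (correlations from −0.08 to −0.02), so no pairing by number was seen. This cannot tell whether they were grown or prepared together, which the labels do not state. Alternatives were a pseudocount of 0.1, no filter or a mean of 5 TPM, median centring, quantile normalization, the replicate block, no trend, a minimum fold change and leaving out each library.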

Additional observations from a re-analysis of the deposited data

How the results depend on the processing

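Lgals9, Cd274 and Nectin2 kept their direction and an adjusted p under 0.05 in every alternative in which they were tested, with log2 fold changes from −1.80 to −1.67, −1.38 to −0.94 and −0.34 to −0.23. Cd274 was not among the genes tested with a minimum mean of 5 TPM. Cd47 kept its direction in 13 alternatives and passed in 8. Pvr passed in 1 of 13, without pLV-Control replicate 1, and Cd276 in 0 of 13. The number of members lower in pLV-SEMA6A was 4 of the 6 tested, and from 3 to 5 on leaving out each library in turn. In those fits 23.4% to 25.1% of all tested genes were lower and 16.7% to 17.2% higher. In each alternative 0 members were higher. With the absolute log2 fold change over 0.5, 2 members were lower. Of the genes of the other lists 6 were lower in place of 13 and 0 higher in place of 12. These are counts, and the number of genes tested in each list is given above. Over all tested genes 10.8% were lower in place of 28.2%, and 5.12% higher in place of 19.5%. With the replicate block 4 members were lower, and of the other lists 13 genes lower and 10 higher, beside 24.5% and 17.3% of all tested genes. The fitted changes of this balanced design stayed as they were. The limits are the absence of read counts, 3 libraries in a group, and transcripts near or below 1 TPM, where 4 members lie.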
